A study of Mus musculus with 22 samples.

Results

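The voltage-gated sodium channel subunits studied here were 8 genes of the Scn family, 5 that encode pore-forming α subunits (Scn1a, Scn2a, Scn3a, Scn8a and Scn9a) and 3 that encode β subunits (Scn2b, Scn3b and Scn4b). They were chosen by symbol from the 17306 genes of the table, and all 8 were found and passed the filter on low values that left 16765 genes for testing. Levels were measured by RNA sequencing of lumbar spinal cord (L4-L6, the quadrant on the injured side according to the methods) from 22 C57BL6J wildtype male mice, 12 to 14 weeks old when the tissue was collected. All mice had a knee joint injected with 1 mg of monoiodoacetate (MIA), a blocker of glycolysis that damages cartilage and leaves a lasting joint pain. SAFit2, a selective inhibitor of the stress-related co-chaperone FKBP51, was given at 100 mg/kg in a vesicular phospholipid gel (VPG), which releases it slowly, and Vehicle mice received the gel alone. Early mice received gel on days -3 and 4 around the MIA injection according to the methods (the sample labels read days 3 and 4), and late mice on days 20 and 27. There were 6 Early Vehicle, 5 Early SAFit2, 6 Late Vehicle and 5 Late SAFit2 mice, and all groups carried the MIA injury, so that no uninjured level of any channel gene was analysed here. In the Early SAFit2 group the treatment label gives SAFit2 but the titles give SAFit1, and the treatment label was followed. Early and late mice are also labelled as separate batches, so that timing and batch cannot be told apart in a difference of levels.

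Voltage-gated sodium channels carry the inward current that starts and propagates the action potential. The α subunit forms the pore and holds the voltage sensors, and β subunits are single-pass membrane proteins that alter gating and the trafficking of the channel and act as adhesion molecules. In the central nervous system Nav1.1 (Scn1a) is best known from fast-spiking inhibitory neurons, Nav1.2 (Scn2a) and Nav1.6 (Scn8a) from axon initial segments and nodes of Ranvier, Nav1.3 (Scn3a) from development and nerve injury, and Nav1.7 (Scn9a) from peripheral pain-sensing neurons. The β4 subunit (Scn4b) is linked to resurgent sodium current, which helps neurons fire at high rates.

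The 4 α genes Scn3a, Scn2a, Scn1a and Scn9a lie in this order in one region of chromosome 2. A gap separates Scn2a, which ends at 65767447, from Scn1a, which starts at 66270778. Scn8a is on chromosome 15, and the 3 β genes are on chromosome 9, where Scn2b and Scn4b are neighbours. The α subunits are close copies of each other, which bears on how reads can be assigned. Over the whole coding sequence of the longest transcript (GENCODE M21 on GRCm38), identity between α genes was highest for Scn2a and Scn3a (83.6% of aligned bases) and lowest for Scn8a and Scn9a (71.1%). The reads were 75 bases long, and 2.59% of the 75-base words of the longest Scn1a transcript, 3.81% of those of Scn2a, 3.57% of those of Scn9a and 5.08% of those of Scn3a also occurred in a transcript of another gene. None of the words of Scn8a, Scn2b, Scn3b or Scn4b did. A small part of the reads of the chromosome 2 genes could therefore have been assigned to more than one gene.

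Depth ranged from 11352989 to 24433349 reads on genes per library, and the 8 subunit genes held between 117 reads (Scn9a) and 8469 reads (Scn4b) in a library. The tissue carried its neuronal markers throughout, with all 13 listed neuron markers tested and a summed level of 6887 to 13667 CPM (reads of a gene scaled to a common library size). Of 8 markers of dorsal root ganglion sensory neurons, Scn10a, Scn11a, Trpv1 and Mrgprd were not found in the table and are not analysed here. The other 4 (Calca, Prph, Avil and Isl1) summed to 12.2 to 138 CPM. Prph alone reached 6.66 log2 CPM in a Late SAFit2 mouse, and whether this sum reflects sensory neurons was not tested. In the late comparison 1 of 13 neuron markers was called lower (adjusted p under 0.05 and at least 1.2-fold by limma), beside 6.72% of all genes, and the median log2 fold change was 0.01. The median late log2 fold change was 0.20 for 6 astrocyte markers, 0.12 for 6 oligodendrocyte markers, -0.28 for 3 oligodendrocyte precursor markers, -0.21 for 5 microglia markers and -0.14 for 3 endothelium markers, of which 1 was called lower and none of the others was called. It was 0.03 for the 4 sensory neuron markers, -0.72 for 5 Schwann cell markers and 1.44 for 5 skeletal muscle markers, with none called, although 4 of the 5 muscle markers were higher at a nominal p under 0.05. For the mean of the early and the late effect, at that nominal threshold, 4 of 5 skeletal muscle and 2 of 13 neuron markers were higher, beside 6.03% of all genes, and 2 of 6 astrocyte markers and 1 each of the precursor, microglia and endothelium markers were lower, beside 7.18%. No Schwann cell, sensory neuron or oligodendrocyte marker passed for the mean effect. The part of these markers other than the neuron list in the channel results was not tested. The summed Schwann cell level ran from 130.2 to 3992 CPM within Late SAFit2 mice, and the summed skeletal muscle level from 4.30 to 128.1 CPM. The trend of expression on GC content differed between libraries. Its slope ranged from -0.47 to -0.05 (log2 per 10 percentage points) in Late SAFit2 mice and from -0.32 to 0.49 in Late Vehicle mice, and from -0.24 to 0.31 over the early mice. Transcript GC content was 42.1% to 43.4% for the 4 α genes on chromosome 2, 50.8% for Scn8a, 50.5% for Scn2b, 47.8% for Scn3b and 54.5% for Scn4b, against a median of 49.7% over all genes, so effects are also given after the smooth trend of each library on GC content and transcript length was removed.

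Per kilobase of the longest transcript, Scn4b was the most abundant subunit and Scn9a the least. The median level over the 22 mice was 60.1 CPM per kilobase for Scn4b, 34.5 for Scn2b, 33.9 for Scn1a and 20.8 for Scn8a. It was 10.8 for both Scn2a and Scn3b, 2.65 for Scn3a and 1.21 for Scn9a. On the log2 scale the means ranged from 5.86 ± 0.38 (SD, n = 22) for Scn4b to 0.36 ± 0.51 (SD, n = 22) for Scn9a. Most neighbours in this order kept it from mouse to mouse. Scn4b exceeded Scn2b in 21 of 22 mice, Scn1a exceeded Scn8a in 22 of 22 and Scn8a exceeded Scn2a in 21 of 22. Scn2b and Scn1a could not be ordered, with a mean log2 difference in level per length of 0.01 ± 0.34 (SD) and Scn2b higher in 13 of 22 mice. Scn2a and Scn3b could not be ordered either, with a difference of 0.05 ± 0.22 (SD) and Scn2a higher in 14 of 22. Of the level per length summed over the 5 α genes, Scn1a took 47.4% ± 5.02 (SD, n = 22), Scn8a 30.4% ± 4.53, Scn2a 16.3% ± 2.99, Scn3a 4.00% ± 0.79 and Scn9a 1.95% ± 0.71. Scn3a and Scn9a were thus a small part of the α transcript in every mouse, at no more than 5.45% and 4.23%.

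**Figure D1:**
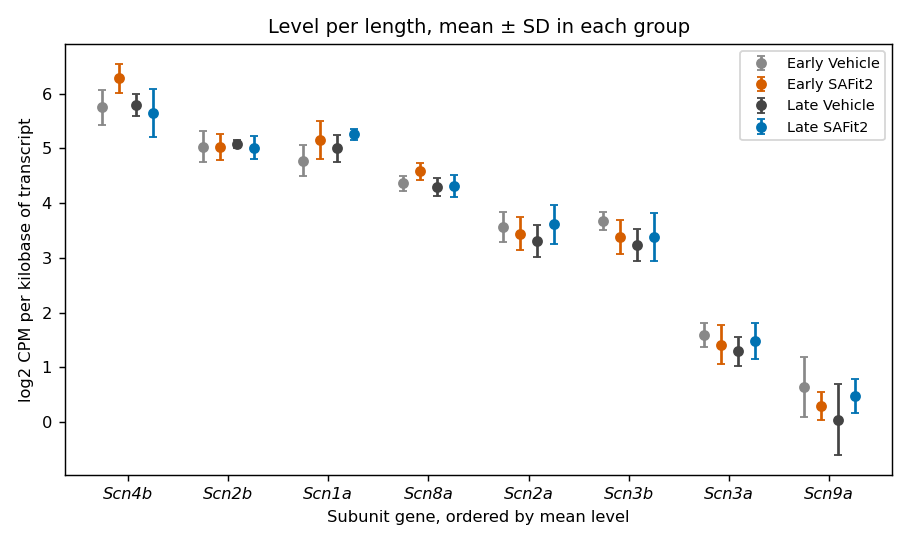
Level of each subunit gene as log2 CPM per kilobase of its longest transcript (y axis) for the 8 genes in order of their mean level (x axis). Points are group means and bars the SD over 6 Vehicle or 5 SAFit2 mice. Scn4b lies at the top, Scn3a and Scn9a lie well under the other genes, and Scn2b overlaps Scn1a as Scn2a overlaps Scn3b.

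The study asked what SAFit2 changes in the injured spinal cord when averaged over both timings. Scn1a was the one subunit gene called for this mean effect, at the nominal limma threshold of 0.05 that the study used, and it was higher with SAFit2. In Early Vehicle mice Scn1a had a lowest, median and highest value of 7.46, 7.83 and 8.28 log2 CPM. The Early SAFit2 mice were at 8.53, 7.66, 8.47, 8.13 and 8.33 log2 CPM. In Late Vehicle mice the lowest, median and highest values were 7.80, 8.03 and 8.47, and the Late SAFit2 mice were at 8.17, 8.43, 8.38, 8.37 and 8.28. Scn1a encodes Nav1.1, and 4 of 5 Early SAFit2 and 5 of 5 Late SAFit2 mice lay above the median of their Vehicle group, although the groups overlapped at both timings. The mean effect was a log2 fold change of 0.32 (SE 0.10, 1.25-fold), and the limma p was 0.0049 before and 0.33 after adjustment. Exact permutation of the treatment labels within timing over 213444 splits gave p = 0.0104. The nominal threshold was passed by 13.2% of all genes tested, 6.03% in the higher and 7.18% in the lower direction, and 0 passed the adjusted threshold, so the call of 1 in 8 subunits is a share near the background. The Scn1a effect passed the nominal threshold without each of the 22 libraries in turn, and at 0.21 (SE 0.07) it also passed after GC and length correction. With the GC slope of each library as a covariate it was 0.18 and missed the threshold, with a nominal limma p of 0.0638. After the GC and length correction Scn4b was also past the nominal threshold for the mean effect, at 0.33 (SE 0.10), beside 8.44% of all genes.

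**Figure D2:**
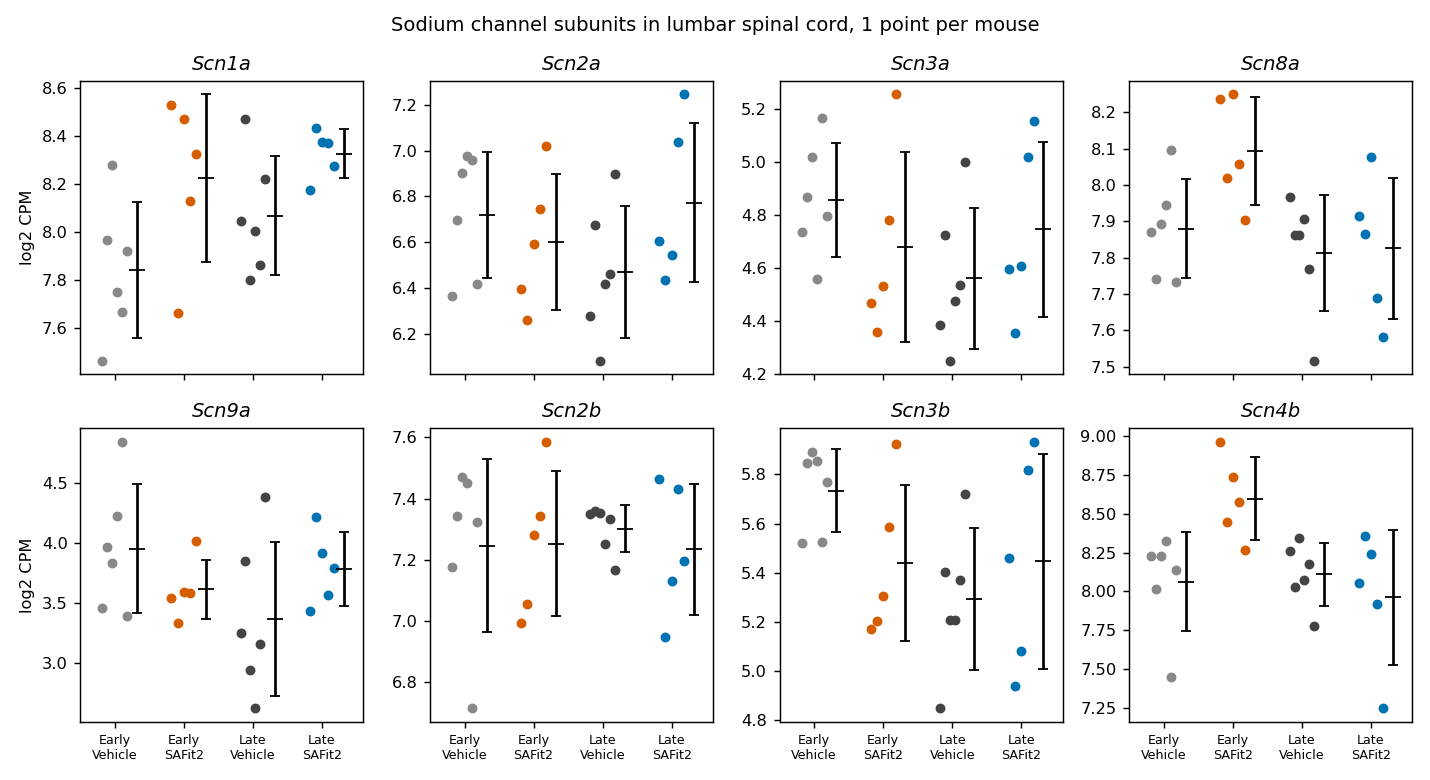
Log2 CPM (y axis) of the 8 subunit genes in the 4 groups (x axis), 1 point per mouse, with the mean and SD of each group in black. Scn4b is highest in Early SAFit2 mice (7.45 to 8.33 in Early Vehicle and 8.27 to 8.96 in Early SAFit2), and no subunit has groups that are fully apart, which 0.352% of all genes had between the early groups, 1.71% between the late groups and 4.92% between the Vehicle groups. The y axes differ between panels and do not start at 0.

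In the early comparison, which asks what is left of the treatment given around the injury, no subunit gene passed an adjusted p under 0.05 with a 1.2-fold change by limma, and neither did any other gene (0.0% of 16765). At a nominal p under 0.05, 3 of the 8 subunit genes were higher (Scn1a, Scn8a and Scn4b) and 0 lower, while 2.48% of all genes passed this threshold, 0.942% in the higher and 1.54% in the lower direction. Scn4b showed the largest of these differences. Its Early Vehicle mice had a lowest, median and highest value of 7.45, 8.18 and 8.33 log2 CPM, and its Early SAFit2 mice were at 8.96, 8.44, 8.74, 8.57 and 8.27. All but 1 Early SAFit2 mouse lay above every Early Vehicle mouse. The log2 fold change was 0.53 (SE 0.17, 1.45-fold), with limma p-values of 0.0043 before and 1.00 after adjustment and an exact permutation p of 0.0065 over 462 splits. Without Early Vehicle replicate 5, the lowest of its group, the log2 fold change of Scn4b was 0.41 with a nominal limma p of 0.0157. After GC and length correction it was 0.46 (SE 0.15), and 2 of the 8 genes, Scn1a (0.35, SE 0.10) and Scn4b, were past the nominal threshold as higher genes, beside 4.46% of all genes in either direction. The mean log2 CPM of the 13 neuron markers was 7.88 ± 0.18 (SD, n = 6) in Early Vehicle and 8.08 ± 0.26 (SD, n = 5) in Early SAFit2 mice, and with this mean as a covariate the Scn4b effect was 0.29 with a nominal limma p of 0.0290. With group means taken away, this mean had r = 0.79 with Scn4b over the 22 mice. Its markers did not all go the same way, with r = 0.76 for Nefl and -0.67 for Syt1. In bulk tissue, fewer cells of a type and less RNA per cell cannot be told apart.

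Scn1a in early mice differed by a log2 fold change of 0.38 (SE 0.15, 1.30-fold), with a nominal limma p of 0.0154 that exceeded 0.05 without either of 2 Early SAFit2 mice (highest p 0.0581). The exact permutation p of Scn1a was 0.0801, which misses 0.05. Scn8a, the gene of Nav1.6, had a lowest, median and highest value of 7.73, 7.88 and 8.10 log2 CPM in Early Vehicle mice and values of 8.24, 8.02, 8.25, 8.06 and 7.90 in Early SAFit2 mice. The Scn8a groups overlapped, with a log2 fold change of 0.21 (SE 0.10, 1.16-fold), a nominal limma p of 0.0484 and an exact permutation p of 0.0411. The Scn8a p stayed under 0.05 in 8 of 22 fits without 1 library, and after GC and length correction its effect was 0.15 and missed the threshold, with a nominal limma p of 0.197. The α genes Scn2a, Scn3a and Scn9a had log2 fold changes of -0.12, -0.18 and -0.34, and the β genes Scn2b and Scn3b of 0.01 and -0.30. None of these 5 passed a nominal threshold (limma p from 0.0982 for Scn3b to 0.966 for Scn2b), and the median over the 8 genes was -0.06 beside 0.01 over all genes.

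**Figure D3:**
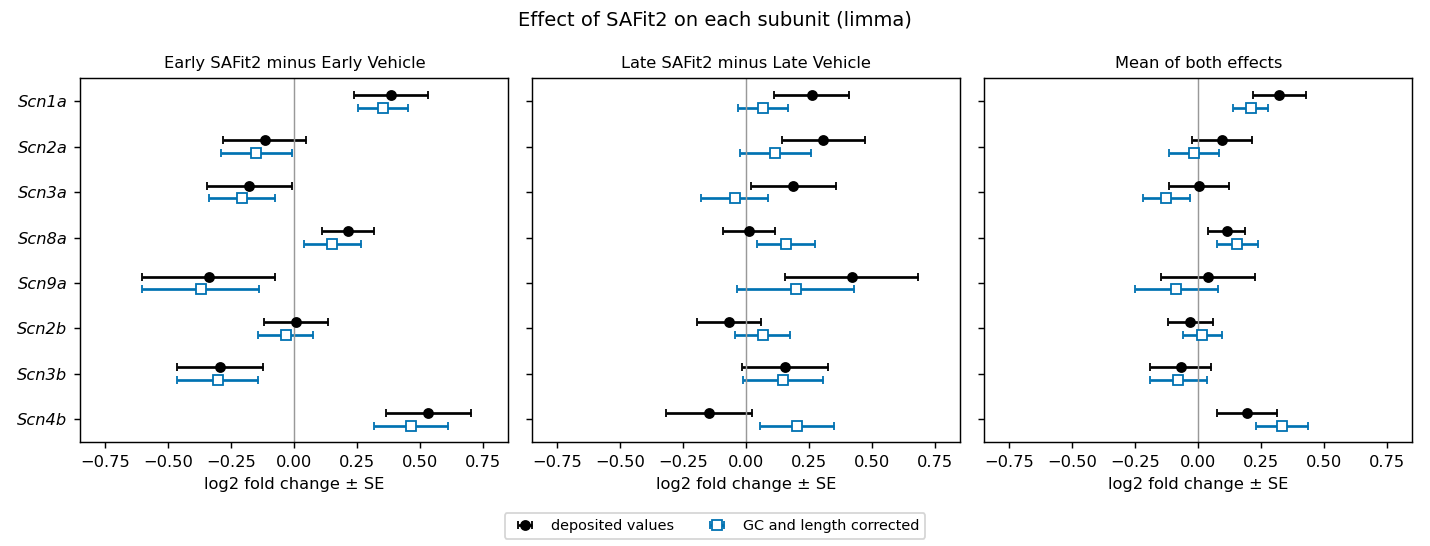
Log2 fold change with its SE (x axis) of each subunit gene (y axis) for the early, the late and the mean SAFit2 effect, from limma on the deposited values (filled circles) and after GC and length correction (open squares). Scn1a and Scn4b lie above 0 in the early comparison, at 0.38 and 0.53, and the late effects of Scn1a and Scn4b move to 0.06 and 0.20 with the correction.

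The second late gel was injected shortly before tissue collection, and this comparison addresses the period in which the drug was still being released. None of the 8 subunit genes was called in the late comparison, where 12.1% of all genes tested passed the same threshold, and none had a nominal p under 0.05, which 34.5% of all genes had. The share called was not stable. It fell to 1 gene without Late Vehicle replicate 1, 3, 4 or 5, or without Late SAFit2 replicate 2 or 5. Without Late Vehicle replicate 6 it rose to 29.7%, and a fit of only the 2 late groups called 0 genes. The late log2 fold changes were 0.26 for Scn1a, 0.31 for Scn2a, 0.19 for Scn3a, 0.01 for Scn8a and 0.42 for Scn9a among the α genes, with SEs of 0.10 to 0.26. Among the β genes they were -0.07 for Scn2b, 0.15 for Scn3b and -0.15 for Scn4b. The lowest limma p was 0.0767 (Scn2a, adjusted p = 0.19) and the lowest exact permutation p 0.0649 (Scn1a). After GC and length correction the late effects of the chromosome 2 genes were 0.06 for Scn1a, 0.12 for Scn2a, -0.05 for Scn3a and 0.20 for Scn9a. That of Scn4b turned from -0.15 to 0.20, and none of the 8 reached a nominal p under 0.05 with the correction (the lowest was 0.178), where 16.0% of genes did. The SDs of the late groups were wide for several genes, at 0.43 for Scn4b and 0.44 for Scn3b in Late SAFit2 mice and 0.64 for Scn9a in Late Vehicle mice.

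Whether the early and the late effect differed was tested directly. No subunit gene was called for this difference, and neither was any other gene (0.0%). Scn4b had the lowest p of the 8, with an early effect of 0.53, a late effect of -0.15 and a difference of 0.68 (SE 0.24, limma adjusted p = 0.12). Permutation of the treatment labels within timing gave p = 0.0193 for Scn4b. A nominal p under 0.05 was found for 24.9% of all genes in this difference, 14.0% in the direction of Scn4b, and 1 of 8 subunit genes, so the subunits did not stand out by this count. The Late SAFit2 values of Scn4b were 8.06, 8.36, 8.24, 7.92 and 7.25 log2 CPM, against a lowest, median and highest value of 7.78, 8.13 and 8.35 in Late Vehicle mice. Without Late SAFit2 replicate 5, the lowest of these, the late effect of Scn4b was 0.03 and the difference 0.50 with a nominal limma p of 0.0255. After GC and length correction the difference of Scn4b was 0.26 with a nominal limma p of 0.217. Scn9a pointed the other way, with a difference of -0.76 (SE 0.37, nominal limma p = 0.0518, permutation p = 0.0735), and the remaining 6 genes had limma p-values of 0.0766 or more. With the correction the difference of Scn9a was -0.57 (SE 0.33), and that of Scn1a moved from 0.12 to 0.29 (SE 0.14) with a nominal limma p of 0.0511, so that no subunit passed the nominal threshold. The mean log2 CPM of the β genes minus that of the α genes, a score that compares groups and not subunits, was 0.77 ± 0.38 (SD, n = 6) in Early Vehicle, 0.85 ± 0.09 (SD, n = 5) in Early SAFit2, 0.85 ± 0.26 (SD, n = 6) in Late Vehicle and 0.59 ± 0.19 (SD, n = 5) in Late SAFit2 mice. After GC and length correction it was 0.77 ± 0.31, 0.85 ± 0.08, 0.71 ± 0.09 and 0.75 ± 0.16 in the same order, so that the order of the late groups turned.

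The 2 Vehicle groups, which differ in the days of gel injection and in the batch label, give the size of a difference between control groups. None of the 8 genes was called between them, against 9.11% of all genes tested. Scn3b, the gene of the β3 subunit, was lower in Late Vehicle mice (lowest, median and highest 4.85, 5.29 and 5.72 log2 CPM) than in Early Vehicle mice (5.52, 5.81 and 5.89). The groups overlapped, and the log2 fold change of -0.44 (SE 0.16) had limma p-values of 0.0124 before and 0.089 after adjustment and an exact permutation p of 0.0108 over 924 splits. Scn9a, with fewer reads than any other subunit gene, had values of 3.39, 3.90 and 4.84 log2 CPM in Early Vehicle and 2.62, 3.20 and 4.38 in Late Vehicle mice. Its log2 fold change was -0.59 (SE 0.25, nominal limma p = 0.0270), and the exact permutation p of 0.115 missed 0.05. These 2 genes were past a nominal p of 0.05, as were 24.3% of all genes. After GC and length correction Scn9a (-0.41, SE 0.22) missed the nominal threshold, while Scn3b (-0.38, SE 0.15) and Scn1a passed it, as did 32.2% of all genes. With the correction Scn1a was also called in this comparison, with 0.38 (SE 0.09, limma adjusted p = 0.0052), where 18.3% of genes were called.

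Some of the subunit genes varied together, and some in opposite directions, between mice of the same group. With group means taken away, 28 pairs of genes were compared over the 22 mice, and 9 pairs had a Benjamini-Hochberg adjusted permutation p under 0.05, 5 with a positive and 4 with a negative Pearson correlation. The share of all gene pairs that would pass was not computed, so this count has no background beside it. Scn2a, Scn3a and Scn3b went up and down together. The correlation of Scn2a and Scn3a was r = 0.84 (Spearman rho = 0.78), with a permutation p of 3e-05 and an adjusted p of 0.00084, and r was 0.79 without the 2 mice farthest from the median. It was 0.68 in early and 0.99 in late mice (n = 11 each), 0.69 in Vehicle mice (n = 12) and 0.97 in SAFit2 mice (n = 10), and 0.77 after GC and length correction. Only 0.101% of all genes tested had a correlation with Scn2a at least as high. Scn2a and Scn3b had r = 0.80 (rho = 0.80, adjusted permutation p = 0.0016), and Scn3a and Scn3b r = 0.78 (rho = 0.75, adjusted permutation p = 0.0028).

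**Figure D4:**
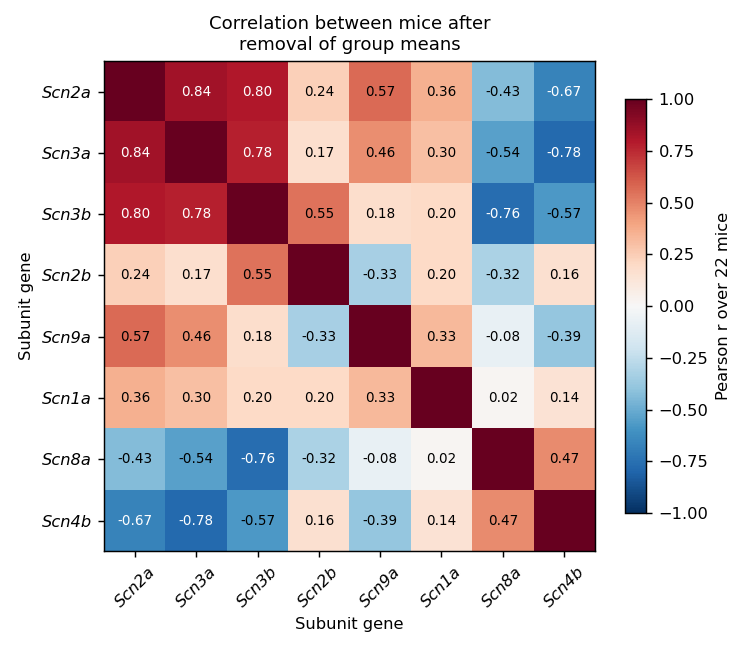
Pearson r between subunit genes (both axes) over 22 mice after the group means were taken away, from -1 (blue) to 1 (red). Scn2a, Scn3a and Scn3b form a block of r from 0.78 to 0.84, and their correlations with Scn8a and Scn4b run from -0.43 to -0.78.

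Scn4b went against Scn2a, Scn3a and Scn3b, and Scn8a against Scn3b. Scn3a and Scn4b had r = -0.78 (rho = -0.73, adjusted permutation p = 0.0013), with r = -0.66 in early and -0.88 in late mice, -0.81 in Vehicle and -0.76 in SAFit2 mice, -0.75 without the 2 farthest mice and -0.81 after GC and length correction. Scn8a and Scn3b had r = -0.76 (rho = -0.68, adjusted permutation p = 0.0031), and -0.39 after the correction. The correlations of Scn8a with Scn2a (r = -0.43, rho = -0.34, adjusted permutation p = 0.14) and Scn3a (r = -0.54, rho = -0.49, adjusted permutation p = 0.055) did not pass, and were 0.10 and -0.22 after the correction. Scn2a and Scn4b had r = -0.67 (rho = -0.60, adjusted permutation p = 0.0057), with -0.39 in early and -0.90 in late mice, and -0.43 after the correction. A correlation at least as low was found for 4.50% of all genes with Scn2a and for 1.47% with Scn4b. The pairs Scn2a and Scn9a (r = 0.57, rho = 0.55), Scn2b and Scn3b (r = 0.55, rho = 0.60) and Scn3b and Scn4b (r = -0.57, rho = -0.56) had adjusted permutation p-values of 0.0292, 0.0348 and 0.0406. Of these 3, the adjusted p of rho was under 0.05 for Scn2b and Scn3b alone, and the r of Scn3b and Scn4b was -0.15 in early and -0.84 in late mice. Many other genes correlated as far in the same direction. They were 7.41% of all genes with Scn2a and 8.52% with Scn9a for the first pair. For the second pair they were 3.94% with Scn2b and 4.09% with Scn3b, and for the third 3.56% with Scn3b and 4.83% with Scn4b. Scn1a had no pair past the threshold, with r from 0.02 to 0.36. The 8 genes share libraries and their depth, and part of their GC trend.

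**Figure D5:**
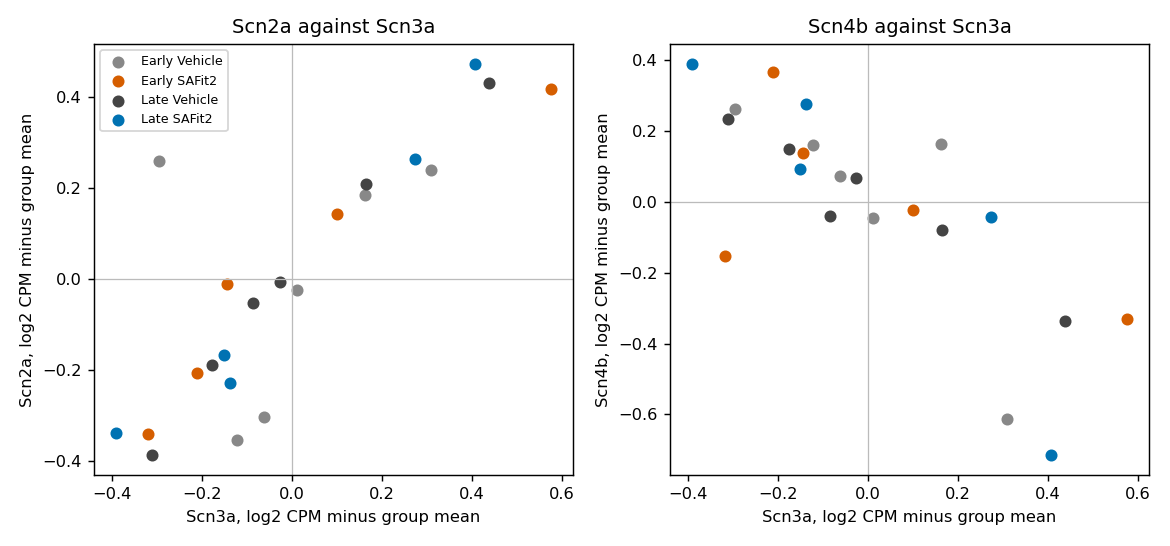
Deviation of each mouse from its group mean in log2 CPM, Scn2a against Scn3a on the left and Scn4b against Scn3a on the right, with points coloured by group. Mice of all 4 groups lie along the rising line on the left (r = 0.84) and the falling line on the right (r = -0.78).

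Markers of neuron types moved along the same line, given as a description over the 22 mice after removal of group means. Chat, which marks cholinergic neurons such as motor neurons, had r = 0.64 with Scn4b and -0.52 with Scn3b. Nefl, a neurofilament gene abundant in large neurons, had r = 0.76 with Scn4b and -0.73 with Scn3b. Syt1, a synaptic vesicle gene, had r = 0.87 with Scn3b, 0.83 with Scn3a and -0.67 with Scn4b. Gad1, of inhibitory neurons, had 0.78 with Scn3b and -0.41 with Scn4b. Slc17a6, of excitatory neurons, went the same way as Gad1, with 0.64 for Scn3b and -0.38 for Scn4b. The range of Chat within a group was as wide as 1.29 to 4.54 log2 CPM in Early SAFit2 mice. The part of these markers in the treatment comparisons of the channel genes was tested only through the mean of the 13 neuron markers as a covariate. The GC slope of a library had r = -0.74 with Scn9a, -0.67 with Scn2a, -0.62 with Scn3a and -0.58 with Scn1a, and 0.43 with Scn4b.

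Among all genes tested, those most like each subunit over the 22 mice were as follows. Scn1a was most like Pja2 (r = 0.95), Nalcn (r = 0.94) and Vcpip1 (r = 0.94), of which Nalcn encodes the sodium leak channel. Scn2a was most like Ahi1, Pkia and Grik2 (r from 0.88 to 0.89), and Scn3a most like Cacna2d1 (r = 0.93), Gpr101 (r = 0.93) and Grm5 (r = 0.91). Cacna2d1 encodes the calcium channel α2δ-1 subunit to which gabapentin binds, Grik2 a kainate receptor and Grm5 a metabotropic glutamate receptor. Scn4b was most like Cables2, Ap3s2 and Acan (r = 0.91 each), of which Acan encodes aggrecan of the perineuronal net. Scn8a was most like Lpin1 (r = 0.90), Scn2b most like Ebf2 (r = 0.91), Scn3b most like Zcchc12 (r = 0.89) and Scn9a most like 1810013L24Rik (r = 0.87).

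Among Scn genes outside the 8, Scn7a, which encodes the sodium sensor Nax, had a mean SAFit2 effect of 0.16 (SE 0.29, permutation p = 0.651).

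Genes that anchor or regulate sodium channels at the axon initial segment and node were taken as a list of 28, all of which were tested. In the late comparison 1 was called higher and 4 lower, beside 5.33% of all genes tested called higher and 6.72% called lower, and the median log2 fold change was 0.02 beside -0.05 over all genes. Those lower included Sptbn4, the βIV spectrin (-0.90, limma adjusted p = 0.0346), Bcan, encoding brevican (-0.72, limma adjusted p = 0.0361), and Cntnap1, of the paranodal junction (-0.58, limma adjusted p = 0.0363). Higher was Fgf12, one of the fibroblast growth factor homologous proteins that bind the α subunit tail (0.56, limma adjusted p = 0.0327). The next lowest p-values in the higher direction belonged to Calm2 (0.44), Cntn1 (0.33) and Vcan (0.37), with adjusted limma p-values of 0.0501, 0.0556 and 0.0775. After GC and length correction the late log2 fold changes were -0.13 for Sptbn4, -0.09 for Bcan, -0.16 for Cntnap1 and 0.36 for Fgf12, and no gene of the table was called. The late calls also depended on single libraries. Without Late Vehicle replicate 1, for example, 1 gene of all tested was called, in the lower direction. A fit of only the 2 late groups called 0 genes. In the early comparison and in the early minus late difference 0 of the 28 were called, for the mean effect 5 were higher and 1 lower at a nominal p under 0.05 (beside 6.03% and 7.18% of all genes), and 2 were called higher in Late against Early Vehicle mice, as were 3.29% of all genes.

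The start-site windows of Scn2a and Scn4b are shown as a description. Each runs from 250 bases before to 50 bases after the start of the transcript, from RefSeq on GRCm38.p6. CpG dinucleotides are in capitals. The part of these windows in the opposite variation of Scn2a and Scn4b between mice was not tested. Of the subunit genes, 6 had such a window. The first line is the second of the 2 windows listed for Scn2a, at chr2:65668436-65668735 on the plus strand, and the second line is Scn4b at chr9:45138374-45138673 on the plus strand.
Scn2a: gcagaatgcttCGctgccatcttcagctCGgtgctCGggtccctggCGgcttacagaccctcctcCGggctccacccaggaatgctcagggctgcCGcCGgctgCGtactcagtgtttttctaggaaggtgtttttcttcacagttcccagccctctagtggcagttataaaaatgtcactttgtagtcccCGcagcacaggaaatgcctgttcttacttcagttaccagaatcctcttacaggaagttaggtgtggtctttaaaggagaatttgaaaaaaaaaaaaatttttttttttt
Scn4b: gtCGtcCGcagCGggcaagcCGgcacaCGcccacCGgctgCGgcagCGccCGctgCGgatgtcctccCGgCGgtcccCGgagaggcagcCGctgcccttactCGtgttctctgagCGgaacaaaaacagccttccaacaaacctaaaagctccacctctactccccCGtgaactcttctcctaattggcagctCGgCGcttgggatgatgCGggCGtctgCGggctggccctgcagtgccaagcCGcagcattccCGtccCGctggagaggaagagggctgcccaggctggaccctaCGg
The Scn4b window held 26 CpG dinucleotides and the Scn2a window shown 9, beside a median of 7 over 32851 windows. The first Scn2a window, at chr2:65620519-65620818, held 3. The letters TATAAA, searched on both strands, occurred once in the Scn2a window shown, not in the first Scn2a window, and in 13.6% of all windows. The glucocorticoid response element, searched on both strands as GNACA and TGTNC with any 3 bases between them, was found in none of the 8 windows of the 6 genes and in 0.475% of all windows. These windows cover only the bases next to an annotated start.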

How the data were processed

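Lumbar spinal cord of 22 mice was sequenced as 75-base paired-end reads. According to the methods and processing notes, the authors trimmed reads (Trimmomatic), aligned them to mm10 (HISAT2), counted genes with featureCounts and scaled libraries by trimmed mean of M-values (edgeR), with no versions given. The deposited values are log2 CPM with a small prior count. Reads worked back from them were whole in 100.0% of cases (tolerance 0.02 reads). The depth of 11352989 to 24433349 reads per library sets the counting error of low genes.

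The 16765 genes that reached -1 on the log2 CPM scale in 5 or more libraries were fitted with limma 3.58.1 in R 4.3.3, with a mean per group and a variance trend. Calls required at least a 1.2-fold change with an adjusted p under 0.05, or, for the mean effect, a nominal p under 0.05. Fold changes are on the deposited log2 scale, which understates those of low genes. Single values were tested by two-sided exact permutation. Correlations between mice used 100000 permutations within groups. Gene models were GENCODE M21, matched to 16693 genes (96.5%), and GC and length trends were removed by loess (span 0.5) for 16208 genes tested. The model fit was tested on simulated data. Members, gene lists and tests were chosen with earlier results of these data known. Named genes were all members, other Scn genes, the 4 regulators of lowest late p in each direction and the 3 genes most like each member. The lists covered cell type markers and sodium channel regulators. A few items that the rule names are not reported here. Labels do not say that samples are separate litters, so p-values measure the spread between these mice. Alternatives were other filters, pseudocounts, variance models, scalings, covariates, a replicate block, limma voom on the recovered reads, and leaving out each library. A fit of only those genes that have a GC value, uncorrected, was added after the data were seen.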

Additional observations from a re-analysis of the deposited data

Results flagged for a closer look

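Scn4b in Early Vehicle replicate 5 was at 7.45 log2 CPM, farther from the other 5 mice of its group than Dixon's 95% limit for 6 values allows. Of 32 groups of values tested in this way, 1 stood out, and chance alone flags about 1 in 20. The mean of the neuron markers was also lowest in this library, at 7.56 log2 CPM, and its GC slope was -0.24 (log2 per 10 percentage points). Their part in the low Scn4b value was not tested.

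The early minus late effect of Scn4b was 0.68 on the log2 scale, with a permutation p of 0.0193 for the difference itself, 1 such result among the 8 genes. Its adjusted limma p was 0.12.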

How the results depend on the processing

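Precision is limited by 5 or 6 mice per group and, for low genes such as Scn9a, by the reads. Late effects move with the GC trend of the libraries, and the correction for it also takes away any part of an effect that follows GC content. Values are log2 effects or counts of called subunits. Where a direction turned, the cause was not tested. Of 712 values under settings other than a left-out library, 633 kept the direction and the side of the threshold reported above.

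At a nominal p under 0.05 the counts were 3 for early, 1 for the early minus late difference and 2 for the Vehicle groups, and at an adjusted p the count for the mean effect was 0. Library quality weights gave 2 called subunits in the late comparison (Scn1a and Scn9a), 4 for the mean effect, 2 for the early minus late difference and 4 for the Vehicle groups, while 38.1%, 38.2%, 30.3% and 30.2% of all genes were called. They turned the early effects of Scn2a (0.048) and Scn2b (-0.0087), the early minus late difference of Scn1a (-0.13) and the Vehicle differences of Scn8a (0.064) and Scn2b (-0.019). Quantile normalization turned the early effect of Scn2b (-0.018), the late effect of Scn8a (-0.035) and the Vehicle differences of Scn2b (-0.077) and Scn4b (-0.13). Library sizes without Bc1 and mitochondrial genes gave 1 called subunit (Scn3b) between the Vehicle groups, beside 10.6% of all genes, and turned the early effect of Scn2b (-0.0050), the late effect of Scn8a (-0.0081), the mean effect of Scn3a (-0.012) and the Vehicle differences of Scn2b (-0.059) and Scn4b (-0.067). Limma voom turned the mean effect of Scn3a (-0.0086), and median centring the Vehicle difference of Scn8a (0.00081).

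GC and length correction gave 2 called subunits for the mean effect (Scn1a and Scn4b) and 1 between the Vehicle groups (Scn1a), beside 8.44% and 18.3% of all genes. It turned the early effect of Scn2b (-0.035), the late effects of Scn3a (-0.045), Scn2b (0.065) and Scn4b (0.20), the mean effects of Scn2a (-0.018), Scn3a (-0.13), Scn9a (-0.088) and Scn2b (0.015), the early minus late differences of Scn8a (-0.0071) and Scn2b (-0.10) and the Vehicle difference of Scn8a (0.070). The GC slope as a covariate gave 2 called subunits for the mean effect (Scn8a and Scn4b), beside 5.51% of all genes. It turned the early effect of Scn2b (-0.0057) and the late effects of Scn1a (-0.052), Scn2a (-0.11), Scn3a (-0.18), Scn9a (-0.31), Scn2b (0.033), Scn3b (-0.11) and Scn4b (0.12). It also turned the mean effects of Scn2a (-0.090), Scn3a (-0.16), Scn9a (-0.28) and Scn2b (0.014), the early minus late differences of Scn2a (0.034), Scn3a (0.044), Scn9a (0.047) and Scn2b (-0.038) and the Vehicle difference of Scn4b (-0.039). The neuron marker mean as a covariate turned the early effect of Scn2b (-0.017), the early minus late difference of Scn1a (-0.052) and the Vehicle difference of Scn4b (-0.30).

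Whether replicate numbers pair the mice is not known. Residuals of mice with the same number correlated from -0.236 to 0.317, with 2 of 10 pairs above 0.1. These values cannot decide it, since mice with different numbers were not compared. The replicate block turned the early effect of Scn2b (-0.00029) and the late effect of Scn8a (-0.032), and the counts of called subunits with it were 0 for early and late, 1 for the mean effect and 0 for the early minus late difference and the Vehicle groups. With GC and length correction and the replicate block the counts were 2 for the mean effect and 1 for the Vehicle groups, beside 8.26% and 17.7% of all genes. That fit turned the early effect of Scn2b (-0.036), the late effects of Scn3a (-0.033), Scn2b (0.064) and Scn4b (0.20), the mean effects of Scn2a (-0.028), Scn3a (-0.11), Scn9a (-0.066) and Scn2b (0.014), the early minus late differences of Scn8a (-0.0071) and Scn2b (-0.10) and the Vehicle difference of Scn8a (0.070).

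Over the 22 fits without 1 library, called subunits ran from 1 to 2 for the mean effect, where Scn4b was added without Late SAFit2 replicate 5, beside 12.0% of all genes. Without Late Vehicle replicate 6, Scn4b was called for the early minus late difference (range 0 to 1), and Scn9a and Scn3b between the Vehicle groups (range 0 to 2). In that fit 15.0% of all genes were called for the difference and 14.8% between the Vehicle groups. Early effects ranged from -0.10 to 0.070 for Scn2b, and late effects from -0.051 to 0.073 for Scn8a, -0.13 to 0.0027 for Scn2b and -0.25 to 0.032 for Scn4b. Mean effects ranged from -0.068 to 0.053 for Scn3a, -0.036 to 0.14 for Scn9a and -0.085 to 0.0041 for Scn2b. The early minus late difference of Scn2b ranged from -0.032 to 0.14, and the Vehicle differences from -0.051 to 0.10 for Scn2b and from -0.075 to 0.11 for Scn4b.

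With exon union length instead of the longest transcript, the mean log2 level per kilobase was 4.62 for Scn1a, 2.96 for Scn2a, 1.06 for Scn3a, 3.92 for Scn8a and 3.03 for Scn3b, so that Scn3b came before Scn2a.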
